A study of Rattus norvegicus with 12 samples.

Results

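The change of small RNAs in the rat choroid between postnatal day 17 (P17) and P14 was followed in 4 of the 12 libraries of the series, which also holds P7 choroid and retina at all 3 ages. These were the choroids of OIR pups at P17, OIR pups at P14, CTL pups at P17 and CTL pups at P14, and P17 was set against P14 within each arm. All pups were Sprague Dawley rats. OIR (oxygen-induced retinopathy, ROI in the sample labels) pups lived in oxygen that cycled between high and low levels until P14 and then in room air, so the P17 OIR pool also had the return to room air, which cannot be told apart from age. CTL pups stayed in room air throughout. Each library was 1 pool of 5 choroids, with 1 library per group, so that no difference within an arm has a replicate check. The files list every small RNA with at least 10 unique molecular identifiers (UMIs, tags by which copies of a molecule are counted as 1). They list 748 of the 750 miRNAs of the series in at least 1 of these 4 libraries. The comparison covers the 439 miRNAs that reached 100 UMIs in any of the 4, and only miR-1843b-3p was unlisted in 1 of them, at P17 OIR. Levels are UMIs per 1000000 miRNA UMIs (RPM), and a miRNA was called higher or lower at P17 where its ratio of P17 to P14 was above 1.2 or below 0.8 with an exact 95% interval that excludes 1. The interval is given in parentheses and covers counting error only.

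A miRNA is a short RNA cut from a hairpin, and it represses mRNAs that pair with its seed, bases 2 to 8 from its 5′ end. The choroid is the vascular, pigmented layer behind the retina that feeds the photoreceptors, and its vessels and stroma mature in the weeks after birth. Several miRNA groups are known to change as tissues mature. The miR-29 family represses collagens and other matrix genes and is known to rise after birth, the miR-125 family contains homologs of lin-4, a timing miRNA of worms, and the imprinted Dlk1-Dio3 locus makes a large group of miRNAs that is abundant in embryonic tissue and declines later. miR-1, miR-133 and miR-206 are known from striated muscle, and miR-200 and miR-205 from surface epithelium.

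The sequences of the miRNAs that the results turn on are from RefSeq (build GRCr8), where 395 of the 439 miRNAs and 82 of the 92 with at least 1000 RPM in 1 of the 4 libraries matched an entry by name. Capitals mark the seed. The first set has the seed of miR-125, with miR-3588 below it because it is annotated on the opposite strand of the same 22 bases as miR-125b-5p (chr11:29732588-29732609) and is its exact reverse complement.
miR-125b-5p: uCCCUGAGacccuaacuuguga
miR-125a-5p: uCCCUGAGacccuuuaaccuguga
miR-351-5p: uCCCUGAGgagcccuuugagccuga
miR-3588: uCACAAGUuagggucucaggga

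The second set is the miR-29 family, which shares 1 seed and differs only after it.
miR-29a-3p: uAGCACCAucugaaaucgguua
miR-29b-3p: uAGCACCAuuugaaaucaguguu
miR-29c-3p: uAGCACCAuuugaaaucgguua

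The third set holds the muscle miRNAs with the seed of miR-1, whose near-identical members may share reads in the authors' alignment.
miR-206-3p: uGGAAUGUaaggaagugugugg
miR-1-3p: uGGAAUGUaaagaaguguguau
miR-1b: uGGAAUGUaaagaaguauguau

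The last set holds the remaining miRNAs that were alike in both arms and named below by sequence, with both products of the miR-140 hairpin, of which only the 5p one was alike.
miR-140-5p: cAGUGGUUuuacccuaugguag
miR-140-3p: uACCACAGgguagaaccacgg
miR-26b-5p: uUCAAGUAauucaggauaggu
miR-205: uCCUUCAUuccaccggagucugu
miR-136-3p: cAUCAUCGucucaaaugagucu
miR-382-5p: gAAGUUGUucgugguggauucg
miR-378a-3p: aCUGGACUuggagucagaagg
miR-340-5p: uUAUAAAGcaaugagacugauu

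The 4 libraries did not stand alike. miRNA UMIs came to 10124189 at P17 OIR, 9211931 at P14 OIR, 14228453 at P17 CTL and 9033745 at P14 CTL. Reads too short to map made 20.1% of the total at P17 OIR and 12.5% at P17 CTL, against 28.8% at P14 OIR and 26.9% at P14 CTL, so this share moved with age in both arms. tRNA made 3.10% of the listed UMIs at P17 OIR, 3.74% at P14 OIR and 3.47% at P17 CTL, but 10.1% at P14 CTL. The 3-member photoreceptor cluster of miR-182, miR-183 and miR-96, whose 4 listed products with enough UMIs summed to 22025 RPM at P17 OIR, 84254 RPM at P14 OIR, 23922 RPM at P17 CTL and 26553 RPM at P14 CTL, stood at least 336008 RPM in the 4 retinas of these ages. The 13 neuronal miRNAs summed to 15171 RPM at P17 OIR and 43830 RPM at P14 OIR, against 18927 and 18392 RPM at P17 and P14 in CTL. The P14 OIR choroid thus held the most retinal miRNA. The endothelial list, led by miR-126a-3p, and miR-204-5p of the pigment epithelium were abundant in all 4 libraries, at 114487 RPM or more and at 14202 RPM or more. The part of short reads, tRNA and retinal miRNA in the results below was not tested, apart from the scalings named beside them.

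In the OIR arm 101 of the 439 miRNAs (23%) were higher and 187 (42.6%) were lower at P17, and in the CTL arm 20 (4.56%) were higher and 264 (60.1%) lower. Both arms agreed for 147 miRNAs, of which 11 (2.51%) were higher and 136 (31%) lower at P17, while 44 were called in opposite directions. The median log2 ratio was -0.25 in the OIR arm and -0.45 in the CTL arm. Among the 92 miRNAs with at least 1000 RPM in 1 of the 4 libraries, 6 were higher and 8 lower in both arms, and the medians were 0.05 and -0.05. Of the 347 less abundant miRNAs, 128 were lower in both arms. These splits turn on the scaling. TMM normalization, which aims to centre the bulk of miRNAs, moved every log2 ratio up by 0.29 in the OIR arm and by 0.70 in the CTL arm. It gave 107 miRNAs higher and 29 lower in both arms (40 and 1 among the abundant ones). The TMM medians of the 439 were 0.03 in OIR but 0.24 in CTL, and those of the 92 abundant ones were 0.34 and 0.65. TMM thus left the CTL arm above 0. All 11 miRNAs higher in both arms remained so with TMM, and 29 of the 136 lower ones did. Directions below are those of RPM, and where TMM turns the called direction of a miRNA whose ratio is given it is said. Ratios under 1 but inside the threshold can also pass 1 with TMM, and this is not said each time.

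Across the 4 libraries with arm as a block, edgeR's quasi-likelihood test on TMM-scaled UMIs called none of 734 miRNAs at an adjusted p under 0.05 (0%), with 55 at an unadjusted p under 0.05 (28 higher and 27 lower) and a smallest adjusted p of 0.514. DESeq2 also called 0, with 61 at an unadjusted p under 0.05. This test rests on 1 residual degree of freedom with dispersion shared across miRNAs. The same edgeR test without TMM, scaled by miRNA UMIs alone, called 21 miRNAs lower and 0 higher. With TMM or DESeq2 nothing below passed, and "higher" and "lower" describe these pools.

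**Figure D1:**
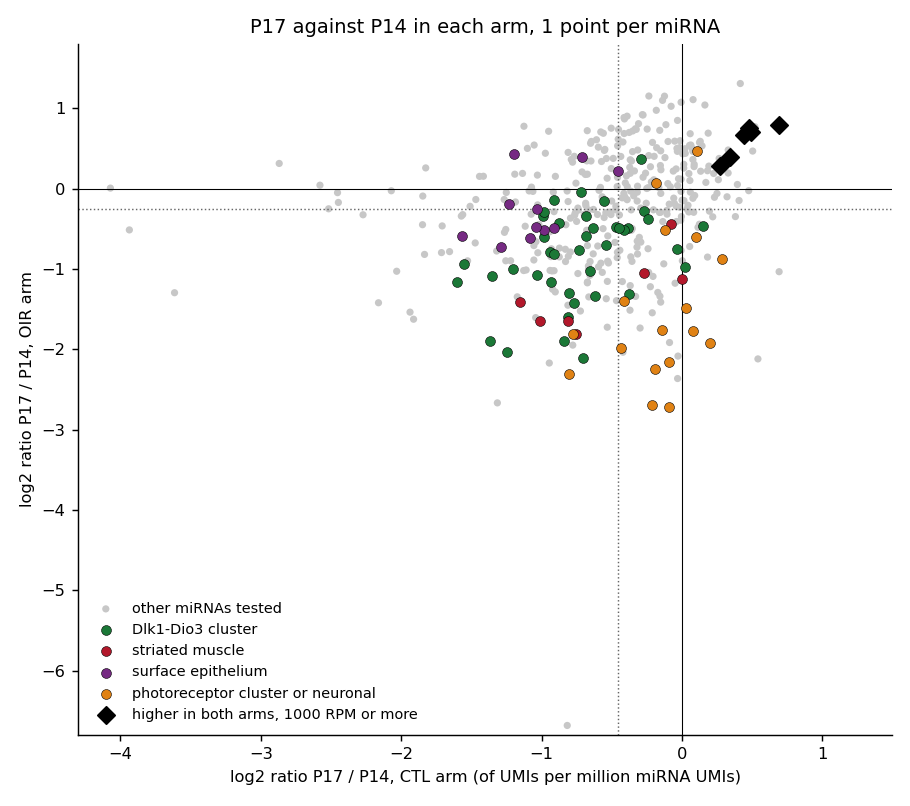
Log2 ratio of P17 to P14 in the OIR arm (vertical) against that in the CTL arm (horizontal) for the 439 miRNAs, 1 point each, with 4 groups coloured and dotted lines at the median of each arm (-0.25 and -0.45). Black diamonds, the 6 abundant miRNAs higher in both arms, lie to the upper right, most of the Dlk1-Dio3 points lie to the lower left, and photoreceptor and neuronal miRNAs lie low in the OIR arm while spreading around 0 in the CTL arm.

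Of the 6 abundant miRNAs that were higher at P17 in both arms, miR-125b-5p had the most molecules. It stood at 95388 RPM at P17 OIR and 56346 RPM at P14 OIR, and at 75134 RPM at P17 CTL and 53910 RPM at P14 CTL. Both P17 libraries were above both P14 libraries, with ratios of 1.69 (1.69 to 1.70) in OIR and 1.39 (1.39 to 1.40) in CTL. The edgeR estimate was a log2 difference of 1.11 ± 0.31 (SE, 4 libraries, adjusted p = 0.514). miR-125a-5p, with the same seed and encoded beside miR-99b and let-7e, was at 9365 RPM at P17 OIR against 7158 RPM at P14 OIR, and at 9549 RPM at P17 CTL against 7540 RPM at P14 CTL. Its ratios were 1.31 (1.30 to 1.32) in OIR and 1.27 (1.25 to 1.28) in CTL, and the ages again did not overlap. The third miRNA with this seed, miR-351-5p, was not higher by RPM, with ratios of 0.985 (0.944 to 1.03) in OIR and 0.664 (0.643 to 0.686) in CTL. TMM put both above 1, at log2 ratios of 0.27 and 0.11. The rarer 3p products of these miR-125 hairpins did not follow. miR-125b-1-3p had 154 UMIs at P17 OIR and 284 at P14 OIR, and 377 at P17 CTL and 459 at P14 CTL. miR-125b-2-3p had 146 and 261 UMIs in OIR, and 458 and 439 in CTL. Both P17 libraries held more miRNA UMIs than P14, so these shares were lower at P17. miR-125a-3p had ratios of 1.29 in OIR and 0.579 in CTL.

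miR-3588 had the highest P17 to P14 ratios of the 6 in both arms. It was measured at 3031 RPM at P17 OIR and 1748 RPM at P14 OIR, and at 2697 RPM at P17 CTL and 1673 RPM at P14 CTL, giving 1.73 (1.70 to 1.77) and 1.61 (1.58 to 1.64). Its level was 3.18% and 3.10% of that of miR-125b-5p at P17 and P14 in OIR, and 3.59% and 3.10% in CTL. Whether the authors' counting used strand is not given in the sources used here, so miR-3588 reads cannot be told apart from reads of miR-125b-5p and it is not a separate observation. The same holds for 2 of the 5 less abundant miRNAs that were higher in both arms, miR-3587, which lies opposite miR-29b-3p, and miR-3556b, opposite miR-29c-3p. In all, 24 such pairs, with 48 miRNAs, were among the 439, and they held 5 of the 11 higher and 7 of the 136 lower miRNAs.

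Of the 3 miR-29 miRNAs, 2 were higher in OIR, 1 in CTL and 1 in both, against 23%, 4.56% and 2.51% of all miRNAs. miR-29b-3p stood at 1568 RPM at P17 OIR and 966.7 RPM at P14 OIR, and at 1115 RPM at P17 CTL and 791.6 RPM at P14 CTL. The P17 libraries were both above the P14 ones, with ratios of 1.62 (1.58 to 1.67) in OIR and 1.41 (1.37 to 1.45) in CTL. miR-29a-3p, the most abundant of the 3, had ratios of 1.45 (1.43 to 1.46) in OIR and 1.10 (1.09 to 1.12) in CTL, and miR-29c-3p of 1.14 (1.13 to 1.15) in OIR and 1.17 (1.15 to 1.19) in CTL. All 3 were thus above 1 in both arms, but only miR-29b-3p passed the 1.2 threshold in both, whereas with TMM 3 of 3 did (107 of all 439). Summed, the family stood at 4994, 11827 and 15758 RPM at P7, P14 and P17 in OIR choroids and at 4103, 9815 and 11292 RPM in CTL choroids. The 2 mature copies of miR-29b-3p lie on chr13:109098882-109098904 and chr4:60618342-60618364, beside miR-29c and miR-29a, and they cannot be separated by their mature sequence. The rarer miR-29b-5p had ratios of 1.63 in OIR and 0.670 in CTL, and TMM turns its CTL direction.

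miR-140-5p, whose hairpin lies within Wwp2 and is known from cartilage, stood at 1117 RPM at P17 OIR and 701.9 RPM at P14 OIR, and at 987.2 RPM at P17 CTL and 726.2 RPM at P14 CTL. Both ratios exceeded the threshold, at 1.59 (1.54 to 1.64) in OIR and 1.36 (1.32 to 1.40) in CTL. The other product of that hairpin, miR-140-3p, was higher in OIR only, with a ratio of 1.85 (1.82 to 1.87), and was lower in CTL at 0.751 (0.741 to 0.761), a direction that TMM turns. The 5p product accordingly came to 0.23 and 0.26 molecules per 3p molecule at P17 and P14 in OIR, but to 0.30 and 0.16 in CTL. miR-26b-5p, hosted by Ctdsp1, was closest to the threshold. It was at 24686 RPM at P17 OIR against 20394 RPM at P14 OIR and at 24942 RPM at P17 CTL against 20712 RPM at P14 CTL, with ratios of 1.21 (1.2 to 1.22) and 1.2 (1.2 to 1.21). With the photoreceptor and neuronal miRNAs left out of the total, the OIR ratio was 1.10 for miR-26b-5p and 1.18 for miR-125a-5p, both under the threshold.

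Below 1000 RPM, the 3 miRNAs higher in both arms that have no partner on the opposite strand were miR-455-3p, miR-374-3p and miR-195-5p. The level of miR-455-3p was 252.1 RPM at P17 OIR and 101.8 RPM at P14 OIR, and 144.1 and 108.0 RPM at P17 and P14 in CTL, giving ratios of 2.48 (2.3 to 2.67) and 1.33 (1.24 to 1.44). miR-374-3p had 1.38 (1.26 to 1.51) in OIR and 1.42 (1.29 to 1.56) in CTL. miR-195-5p, a member of the miR-15/16 family of cell cycle repressors, had 1.39 (1.34 to 1.46) in OIR and 1.26 (1.22 to 1.30) in CTL. By RPM 1 of the 7 members of that family was higher in both arms (11 of all 439), and with TMM 6 were (107 of all 439). The most abundant member, miR-16-5p, differed little, at 46269 RPM at P17 OIR and 43161 RPM at P14 OIR, and 46315 and 44525 RPM at P17 and P14 in CTL.

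**Figure D2:**
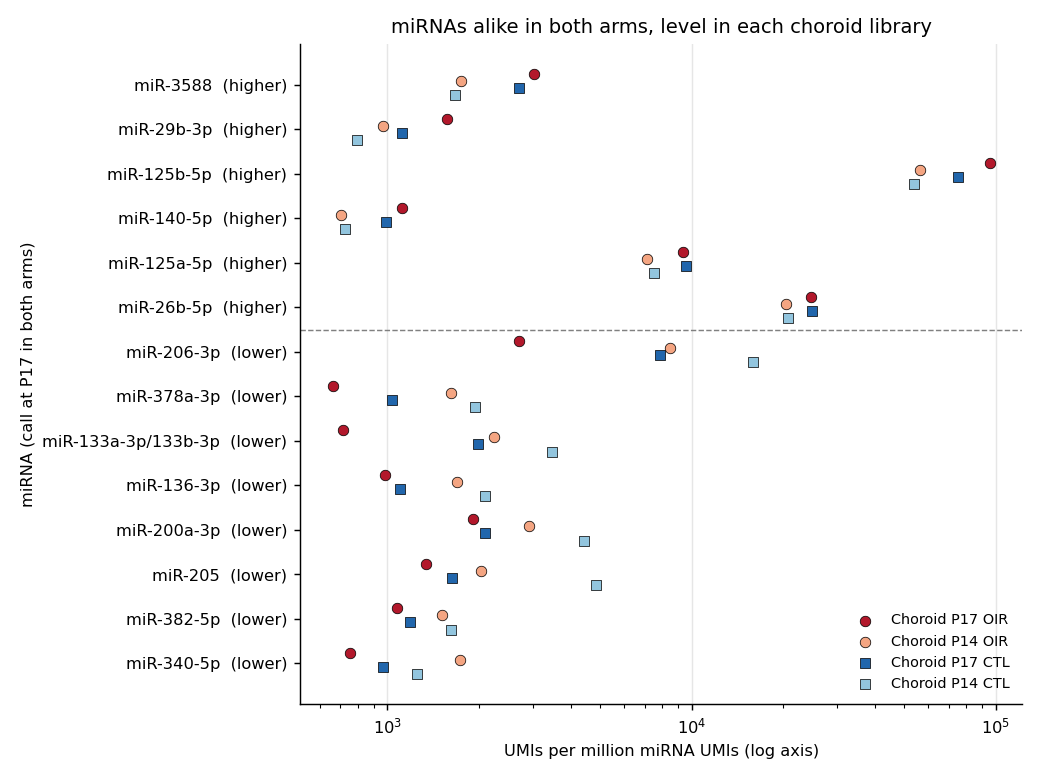
Level of the 14 abundant miRNAs that were called alike in both arms, in UMIs per 1000000 miRNA UMIs on a log axis, with 1 point per library (P17 dark, P14 light, OIR circles, CTL squares). Above the dashed line both P17 points lie to the right of both P14 points for each of the 6 higher miRNAs. Below it, P17 lies to the left of P14 within each arm for the 8 lower ones.

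The 8 abundant miRNAs lower at P17 in both arms were led by the muscle miRNA miR-206-3p. It stood at 2703 RPM at P17 OIR and 8467 RPM at P14 OIR, and at 7893 RPM at P17 CTL and 15902 RPM at P14 CTL. Within each arm the level at P17 was 0.319 (0.315 to 0.324) and 0.496 (0.492 to 0.5) of that at P14, while the P17 CTL library was only a little below the P14 OIR one. The shared entry of miR-133a-3p and miR-133b-3p, which are also muscle miRNAs, was at 712.7 RPM at P17 OIR and 2236 RPM at P14 OIR, and at 1984 RPM at P17 CTL and 3476 RPM at P14 CTL. Its ratios were 0.319 (0.310 to 0.327) and 0.571 (0.562 to 0.580).

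Of the 7 miRNAs of the striated muscle list, 7 were lower in OIR, 4 in CTL and 4 in both. Of all 439 miRNAs, 42.6%, 60.1% and 31% were, so the CTL share of the list was no higher than that of all. The median log2 ratios of the list were -1.41 and -0.75. The remaining called members were miR-208b-3p and miR-133a-5p. The most abundant member, miR-1b, was at 9155 RPM at P17 OIR and 19937 RPM at P14 OIR, but at 20409 and 20432 RPM at P17 and P14 in CTL, a ratio of 0.999. miR-1-3p behaved alike, with 0.482 (0.475 to 0.489) in OIR and 0.831 (0.823 to 0.839) in CTL. TMM put the CTL ratios of miR-1b and miR-1-3p above 1, at log2 ratios of 0.70 and 0.43. The summed muscle list was 15780 RPM at P17 OIR against 37147 RPM at P14 OIR and 37215 RPM at P17 CTL against 48162 RPM at P14 CTL. In the retinas at P14 and P17 the same sum was at most 733 RPM, and fewer muscle cells and less RNA per cell cannot be told apart in bulk tissue. With TMM only miR-133a-5p was still lower in both arms by the thresholds, although the ratio of miR-206-3p and of the miR-133 entry stayed below 1 in each arm.

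Surface epithelial miRNAs formed the second group. miR-205 was at 1341 RPM at P17 OIR and 2025 RPM at P14 OIR, and at 1632 RPM at P17 CTL and 4836 RPM at P14 CTL. Its ratio was 0.662 (0.647 to 0.677) in OIR and 0.338 (0.332 to 0.343) in CTL, where the P14 library held the highest level of the 4. miR-200a-3p was at 1913 RPM at P17 OIR against 2925 RPM at P14 OIR and at 2097 RPM at P17 CTL against 4430 RPM at P14 CTL, with ratios of 0.654 (0.642 to 0.666) and 0.473 (0.466 to 0.481). It was the only abundant miRNA that TMM left lower in both arms. Of the 11 members measured, 6 were lower in OIR, 11 in CTL and 6 in both, against 42.6%, 60.1% and 31% of all miRNAs, with medians of -0.47 and -1.04. With TMM 1 of the 11 was lower in both arms, against 29 of all 439. The most abundant members at P17 OIR, miR-184 and miR-203a-3p, stood above P14 in that arm, miR-184 at 9346 RPM at P17 OIR and 7097 RPM at P14 OIR and miR-203a-3p at 8278 RPM at P17 OIR and 7084 RPM at P14 OIR. The summed list was accordingly 22819 RPM at P17 OIR and 21635 RPM at P14 OIR, against 15504 RPM at P17 CTL and 28285 RPM at P14 CTL. In the retinas of these ages it was at most 2638 RPM.

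The Dlk1-Dio3 miRNAs were the largest group that was alike. The locus lies on rat chromosome 6, where RefSeq places 43 of the measured miRNAs between 134543460 and 134579793 and 15 more between 134306510 and 134331404 on the plus strand, where miR-136-3p lies within Rtl1, a gene of the locus. The list holds 40 measured members. Of these, 34 were lower in OIR, 34 in CTL and 30 in both (75.0%, against 31% of all miRNAs), and 0 were higher in both. By position, 27 of the 43, 11 of the 15 and 2 of 4 between these stretches were lower in both arms. Each is a smaller share than that of the list, and 0 were higher in both. With the abundant members left aside, 28 of 36 were lower in both arms, against 128 of all 347 below 1000 RPM (36.9%). The median log2 ratio was -0.76 in OIR and -0.73 in CTL, which is 0.51 and 0.27 below the medians of all miRNAs whatever the scaling. TMM brought these medians to -0.48 and -0.03, and 7 of the 40 were lower in both arms against 29 of 439. All but 1 member in OIR and all but 2 in CTL had a ratio below 1.

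Within the group the ratios ranged in OIR between 0.23 for miR-431 and 1.29 for miR-376b-3p, and in CTL between 0.33 for miR-485-5p and 1.11 for miR-411-5p. The 2 abundant called members were miR-136-3p and miR-382-5p. miR-136-3p stood at 978.1 RPM at P17 OIR and 1695 RPM at P14 OIR, and at 1096 RPM at P17 CTL and 2098 RPM at P14 CTL. Its ratios were 0.577 (0.562 to 0.592) and 0.522 (0.512 to 0.534), and both P17 libraries were below both P14 ones. miR-382-5p was at 1076 RPM at P17 OIR against 1514 RPM at P14 OIR and at 1188 RPM at P17 CTL against 1617 RPM at P14 CTL, with ratios of 0.711 (0.693 to 0.729) and 0.735 (0.718 to 0.751), and TMM put its CTL ratio above 1. The most abundant member, miR-379-5p, was at 3080 RPM at P17 OIR and 4012 RPM at P14 OIR, and at 3399 RPM at P17 CTL and 4017 RPM at P14 CTL, past the threshold in OIR only. miR-411-5p, encoded beside it, had 0.723 (0.710 to 0.735) in OIR and 1.11 (1.09 to 1.13) in CTL. Among the lowest, miR-433-3p was at 3.26 RPM at P17 OIR against 13.4 RPM at P14 OIR, and at 5.69 RPM at P17 CTL against 13.5 RPM at P14 CTL.

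The summed Dlk1-Dio3 level was 25321, 18113 and 12016 RPM at P7, P14 and P17 in OIR choroids, and 18712, 18945 and 13819 RPM in CTL choroids. It was thus lowest at P17 in both arms, while between P7 and P14 it was lower in OIR and nearly level in CTL. Of the 5 measured miRNAs of the growth-linked list, named for the imprinted H19 and Igf2 loci, 2 were lower in both arms (31% of all miRNAs), and 1 with TMM (29 of all 439). RefSeq places miR-675-3p within H19 and miR-483-3p within Igf2, and miR-335 is not taken here as a product of either. The most abundant member, miR-335, had ratios of 1.51 (1.49 to 1.53) in OIR and 0.991 in CTL. miR-675-3p of H19 and miR-483-3p of Igf2 were lower in both arms, with ratios of 0.492 (0.411 to 0.589) and 0.393 (0.306 to 0.502) in OIR and of 0.532 (0.460 to 0.614) and 0.443 (0.374 to 0.526) in CTL, at no more than 46.4 RPM.

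**Figure D3:**
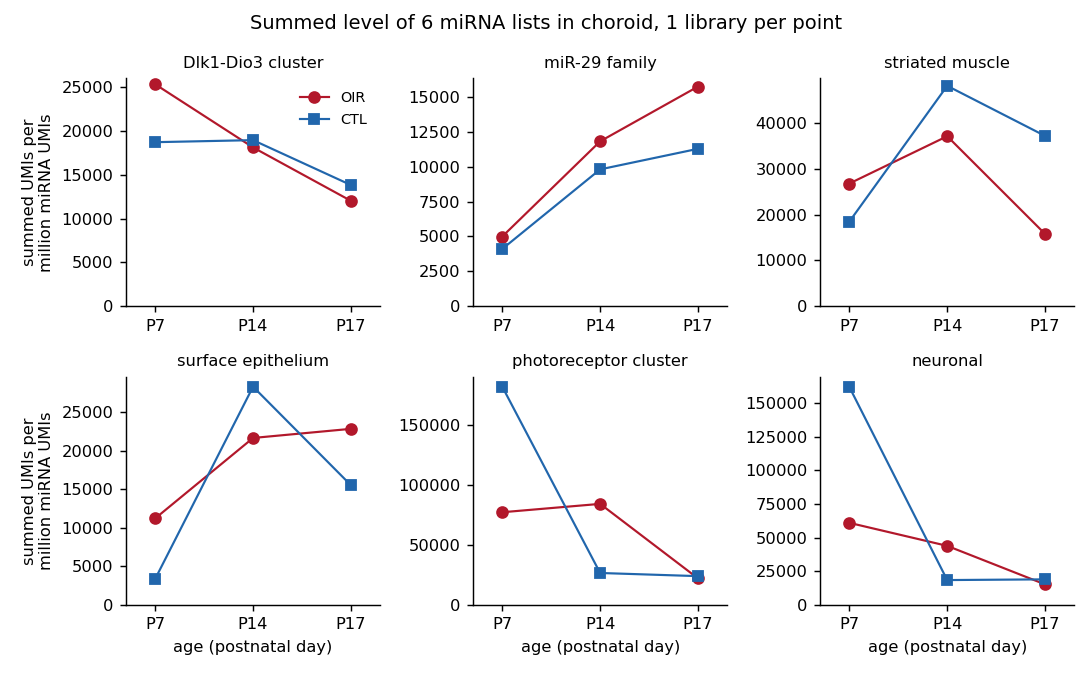
Summed level of 6 miRNA lists in choroid at P7, P14 and P17, in UMIs per 1000000 miRNA UMIs from 0, with 1 library per point (OIR red circles, CTL blue squares). The Dlk1-Dio3 sum is lowest and the miR-29 sum highest at P17 in both arms, the muscle sum is lower at P17 than at P14 in both, and the photoreceptor and neuronal sums differ between the arms at P7 and P14 but hardly at P17.

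The last 2 abundant miRNAs lower in both arms were miR-378a-3p, encoded within the metabolic regulator Ppargc1b, and miR-340-5p, within Rnf130. miR-378a-3p was at 661.5 RPM at P17 OIR and 1614 RPM at P14 OIR, and at 1035 RPM at P17 CTL and 1934 RPM at P14 CTL, with ratios of 0.410 (0.398 to 0.422) and 0.535 (0.523 to 0.547). It overlaps miR-3557-5p on the opposite strand. miR-340-5p was at 751.3 RPM at P17 OIR and 1736 RPM at P14 OIR, and at 967.1 RPM at P17 CTL and 1248 RPM at P14 CTL. The ratios of miR-340-5p were 0.433 (0.421 to 0.445) and 0.775 (0.756 to 0.794), and TMM put the CTL one above 1. With TMM, 12 of the 14 abundant miRNAs that were alike kept their direction in both arms, miR-382-5p and miR-340-5p being the exceptions.

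The vascular miRNA miR-126a-3p, the most abundant of all, was at 127802 RPM at P17 OIR and 85023 RPM at P14 OIR, against 88124 and 80499 RPM at P17 and P14 in CTL. It was higher at P17 in both pairs but past the threshold in OIR only, with ratios of 1.5 (1.5 to 1.51) and 1.09 (1.09 to 1.10). With TMM the CTL ratio passed it too, at 1.77. miR-126a-5p of the same hairpin followed, with 1.46 and 1.05. Of the 5 endothelial miRNAs, these 2 were higher and 1 was lower in OIR, against 23% and 42.6% of all miRNAs. In CTL 0 were higher and 0 lower (4.56% and 60.1% of all). With TMM 3 were higher in both arms (107 of all 439). miR-139-5p had ratios of 0.656 in OIR and 0.810 in CTL, and miR-101b-3p of 0.969 and 1.04. Of the 11 mesenchymal and mural miRNAs, 8 were higher in OIR (23% of all miRNAs) and 1 in CTL (4.56% of all), and by RPM 1 of them, miR-140-5p, was higher in both, whereas with TMM 7 were (107 of all 439). miR-199a-5p, for example, was at 12033 RPM at P17 OIR and 5916 RPM at P14 OIR, but at 7157 and 7549 RPM at P17 and P14 in CTL. The most abundant members, miR-199a-3p and miR-143-3p, had OIR ratios of 0.902 and 0.802, below 1 but inside the threshold. Of the 11, 1 was lower in OIR (42.6% of all miRNAs), 3 in CTL (60.1% of all) and 1 in both (31% of all). The member lower in both was miR-214-3p, at 0.479 in OIR and 0.638 in CTL, and TMM turns its CTL direction. The summed list was 151482 RPM at P17 OIR and 147492 RPM at P14 OIR, and 168465 and 175068 RPM at P17 and P14 in CTL. Among the 6 members of the miR-23/27/24 clusters, which are linked to angiogenesis, 3 were higher in OIR (23% of all miRNAs) and 3 were lower in CTL (60.1% of all). With TMM 3 were higher in both arms (107 of all 439) and 0 lower (29 of all 439).

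The let-7 family, known for differentiation and with near-identical members that may share reads, held nearly level by RPM, with medians of -0.11 in OIR and -0.01 in CTL and 0 of 9 members called in both arms. With TMM the medians of this family were 0.18 and 0.69, and 3 of 9 members were higher in both arms, against 107 of all 439. let-7f-5p was at 36473 RPM at P17 OIR and 39320 RPM at P14 OIR, and at 46429 and 39538 RPM at P17 and P14 in CTL. The miR-30 family had medians of -0.12 and 0.05. For the miR-17 clusters of growth-promoting miRNAs, 5 of 10 were lower in OIR, 6 in CTL and 4 in both, against 31% of all miRNAs lower in both, with medians of -0.39 and -0.41. With TMM 0 of these 10 were lower and 3 higher in both arms, against 29 and 107 of all 439. Of the 4 erythroid miRNAs, which stood at no more than 71.6 RPM, 3 were lower in both arms, against 36.9% of all miRNAs under 1000 RPM, and 2 with TMM (29 of all 439). Of the pigment epithelium list, miR-204-5p had ratios of 0.865 in OIR and 1.03 in CTL and no member was called alike. The photoreceptor list was lower in OIR for 4 of 4 members (42.6% of all miRNAs), with a median of -2.20, and in CTL for 0 (60.1% of all), with a median of -0.12. The leukocyte list had 4 of 7 members higher in OIR (23% of all miRNAs) and 1 in CTL (4.56% of all). With TMM 4 were higher in both arms, against 107 of all 439. In OIR miR-223-3p was at 2039 RPM at P17 and 1133 RPM at P14. The more abundant miR-142-3p was lower in OIR, at 2552 RPM at P17 and 3250 RPM at P14, a ratio of 0.785. It was the member called higher in CTL.

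**Figure D4:**
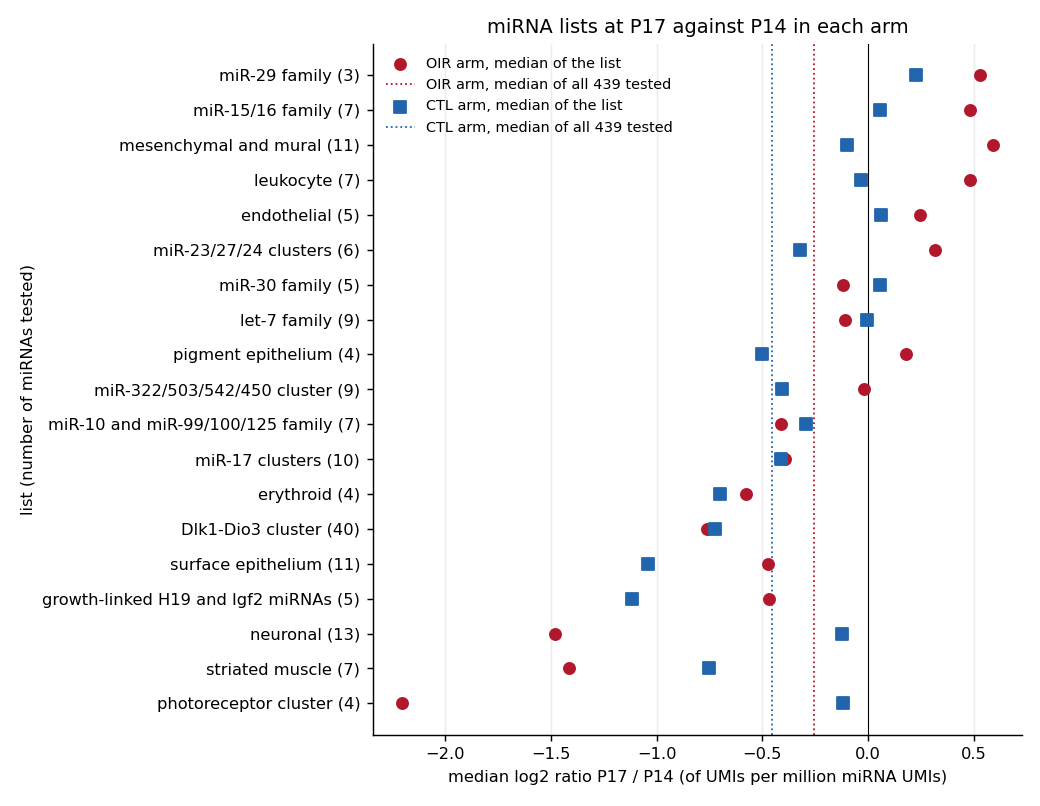
Median log2 ratio of P17 to P14 for the 19 miRNA lists with at least 3 measured members, in the OIR arm (red circles) and the CTL arm (blue squares), with dotted lines at the median of all 439 miRNAs in each arm. The Dlk1-Dio3, surface epithelium, striated muscle, erythroid and H19 and Igf2 lists lie left of both dotted lines in their arms and the miR-29 list lies right of 0 in both, whereas the photoreceptor and neuronal lists lie far left in OIR alone.

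The same ages were also compared in the retina, where the Dlk1-Dio3 list had median log2 ratios of -0.13 in OIR and 0.01 in CTL, and its sum was 10355 RPM at P17 and 10361 RPM at P14 in OIR and 12620 and 12266 RPM in CTL. The miR-29 family was higher in the retina too, with 3 of 3 members called in both arms (38 of all 433 there) and ratios for miR-29b-3p of 2.31 in OIR and 2.80 in CTL. miR-125b-5p had 1.23 and 1.08 there. The age effect in choroid minus that in retina, tested by edgeR on the 8 libraries of both tissues at P17 and P14, was called for none of 699 miRNAs (0%), with 48 at an unadjusted p under 0.05 and a smallest adjusted p of 0.616, and DESeq2 called 0, with 28 at an unadjusted p under 0.05. It was 0.95 ± 0.47 on the log2 scale for miR-125b-5p (SE, 8 libraries, adjusted p = 0.723) and -0.58 ± 0.40 for miR-136-3p (SE, 8 libraries, adjusted p = 0.853). Both differences are on the TMM scale, unlike the RPM ratios above. With TMM or DESeq2 no member was therefore shown to be particular to the choroid. The same edgeR test without TMM called 32 of 699 miRNAs lower and 0 higher, so this depends on the scaling.

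tRNA-derived UMIs, which came mostly from glycine tRNAs, summed to 32088 per 1000000 miRNA UMIs at P17 OIR and 38927 at P14 OIR, and to 36052 at P17 CTL and 112697 at P14 CTL. The ratio was 0.824 (0.820 to 0.828) in OIR, inside the threshold, and 0.320 (0.319 to 0.321) in CTL, where the P14 library stood far above the other 3. Of 46 isotypes with at least 100 UMIs, 24 were lower in both arms (52.2%) and 0 were higher (0%). GlyGCC, with the most UMIs, was at 22324 at P17 OIR, 24766 at P14 OIR, 23097 at P17 CTL and 62121 at P14 CTL, and GlyCCC had ratios of 0.812 in OIR and 0.251 in CTL. The 3 valine isotypes were lower in both arms. ValCAC was at 622.0 at P17 OIR against 2060 at P14 OIR and at 1691 at P17 CTL against 10330 at P14 CTL, with ratios of 0.302 (0.293 to 0.311) and 0.164 (0.161 to 0.166). ValAAC had 0.327 in OIR and 0.211 in CTL, and ValTAC, with fewer UMIs, 0.645 (0.573 to 0.726) and 0.352 (0.324 to 0.382).

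The entries annotated as piRNAs, which are best known from the germ line, summed to 2029 per 1000000 miRNA UMIs at P17 OIR and 2417 at P14 OIR, and to 1817 at P17 CTL and 4734 at P14 CTL. Of 44 such entries, 20 were lower in both arms (45.5%) and 0 were higher (0%). piR-005595 had ratios of 0.934 in OIR and 0.421 in CTL, piR-005901 of 0.764 and 0.209, and piR-011541 of 0.742 and 0.515. The tRNA and piRNA ratios of CTL and the lower miRNA calls of that arm were set against the same P14 CTL library. Whether they are linked was not tested.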

How the data were processed

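Small RNA libraries of pooled rat choroid were analysed from the authors' per-library tables. Per the labels, the authors made them with bcl2fastq 2.20, cutadapt and Bowtie on Rnor_6.0. The labels name a QIAseq miRNA kit and the study's methods TruSeq Small RNA. The deposited values are counts of UMIs and of reads per feature, not normalized, and features under 10 UMIs are not listed. An unlisted feature was set to 10 UMIs in ratios and to 0 in fits. Ratios of UMIs per 1000000 miRNA UMIs had exact conditional 95% intervals (scipy 1.17.1). edgeR 4.0.16 (TMM, quasi-likelihood, Benjamini-Hochberg) was run in R 4.3.3 on miRNAs with at least 10 UMIs in 2 of 4 or 4 of 8 libraries, with DESeq2 1.42.0 as an alternative, and was tested on simulated data. Named miRNAs are the 10 most abundant, up to 12 per direction alike in both arms at 1000 RPM or more, the 8 with the largest gap among opposite calls, and the most abundant 2 to 4 of each of 20 lists, with 4 tRNA isotypes and 3 piRNAs. Others were named after their values were seen. Members, lists and tests were chosen with earlier results of these data known. Alternatives were other scalings, thresholds and filters, reads in place of UMIs and left-out libraries. Python 3.11.15 was used.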

Additional observations from a re-analysis of the deposited data

Results flagged for a closer look

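For 8 abundant miRNAs both arms passed the threshold in opposite directions, and the difference between the arms was not tested, since each rests on 1 library per age and arm. The values are log2 ratios of P17 to P14 in OIR minus those in CTL. Among the 7 that were higher at P17 in OIR and lower in CTL, the gap was 1.30 for miR-140-3p, 1.29 for miR-191a-5p, 1.25 for miR-145-5p, a smooth muscle miRNA, 1.17 for miR-24-3p, 1.11 for miR-184, which is abundant in ocular surface and lens, 0.99 for miR-99b-5p and 0.73 for miR-186-5p, and TMM puts the CTL ratio of all but miR-24-3p and miR-184 above 1. miR-142-3p of blood cells went the other way, with a gap of -0.73, from ratios of 0.785 in OIR and 1.30 in CTL. miR-145-5p was at 2013 RPM at P17 OIR and 1249 RPM at P14 OIR, and at 1499 RPM at P17 CTL and 2209 RPM at P14 CTL. miR-184 was at 9346 RPM at P17 OIR and 7097 RPM at P14 OIR, and at 5832 RPM at P17 CTL and 9568 RPM at P14 CTL. Of the tRNA isotypes, AspGTC, with a gap of 1.47, and LysTTT, with a gap of 1.10, were also higher at P17 in OIR and lower in CTL. For AspGTC the level was 1468 per 1000000 miRNA UMIs at P17 OIR and 1062 at P14 OIR, and 912.0 at P17 CTL and 1822 at P14 CTL.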

How the results depend on the processing

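With 1 library per group, no adjusted call was made by edgeR with TMM or by DESeq2 on the full set of libraries, and the part of sequencing depth was not tested. The number of miRNAs higher in both arms was 107 with TMM, 66 over total reads and 0 at 2-fold, and the number lower was 29, 52 and 18. Among those at 1000 RPM or more, 40, 31 and 0 were higher and 1, 5 and 1 lower, and 4 were lower with 1000 RPM required in all 4 libraries. Dlk1-Dio3 members lower in both arms numbered 7 with TMM and 12 over total reads, striated muscle members 1 and 2, and 1 surface epithelium member was left with TMM. Keeping 1 arm only, by leaving out a P14 library (chosen after seeing the data), gave 20 to 101 higher and 187 to 264 lower miRNAs, 34 Dlk1-Dio3, 4 to 7 striated muscle and 6 to 11 surface epithelium members lower. In CTL the ratio turned above 1 with TMM for miR-382-5p (1.19), miR-340-5p (1.26), miR-140-3p (1.22), miR-191a-5p (1.24), miR-145-5p (1.10), miR-99b-5p (1.03) and miR-186-5p (1.26), and over total reads for miR-382-5p (1.04), miR-340-5p (1.09), miR-140-3p (1.06), miR-191a-5p (1.08) and miR-186-5p (1.09). edgeR without TMM called 21 miRNAs lower for age and 32 for choroid minus retina. Leaving out 1 library called 0 to 12 lower for age (12 without P14 OIR, 1 without P17 CTL) and 0 to 6 for choroid minus retina (6 without choroid P17 OIR). Over total reads 3 piRNAs were higher and 9 lower in both arms. Other causes were not tested. No paired analysis was possible because each group holds 1 library and the labels give no replicate numbers.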

Other observations

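2 seed families outside the lists are given as values. Of the 3 miRNAs with the seed of miR-34a-5p, 2 were lower in both arms, and of the 4 with the seed of miR-181a-5p, 4 were lower in OIR, 2 in CTL and 2 in both, against 42.6%, 60.1% and 31% of all miRNAs.

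miR-6328 had the lowest ratio of all miRNAs in OIR, at 0.00973 (0.00754 to 0.0123), with 6.72 RPM at P17 OIR against 690.5 RPM at P14 OIR and 496.5 RPM at P17 CTL against 874.6 RPM at P14 CTL. Over the 12 libraries of the series its level ran between 4.93 and 874.6 RPM, at 4.93 and 11.7 RPM in the P17 and P14 OIR retinas against 173.4 and 547.6 RPM in the P17 and P14 CTL retinas. miR-489-5p and miR-1843b-3p stood out in the P14 CTL choroid alone, at 40.2 and 19.4 RPM, where the other libraries that list them held at most 3.16 and 3.59 RPM.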
